A study of Solanum tuberosum with 22 samples.

Results

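Young potato (Solanum tuberosum) tubers of 6-10 mm were compared with tubers of 1-5 mm, the earliest tuber size class collected. The comparison used 4 of the 22 samples of the series, 2 replicates of each size class, and every spot of the array that had a value in all 4 of them, which was 9233 of 32448 spots. The plants were grown in a growth chamber, and the labels name no cultivar, genotype, age or treatment. Each replicate was a separate set of plants, and the second set was grown after the first, so both tubers of a replicate came from the same planting. Total RNA of each class was hybridised to a spotted 2-colour array together with a reference pool made of the RNA of all in vivo stages, from stolons (the underground shoots on which tubers form) to tubers of 26-35 mm. Values are log2 ratios to that pool, so 1 unit is a doubling, and a value below 0 lies under the average of the stages. Stolon RNA, unlike that of the tubers, was amplified to cRNA before labelling, so values set between stolons and tubers carry that difference. The growth protocol in the labels describes a culture medium for these samples too.

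In replicate 1 the sample was labelled with Cy3 and in replicate 2 with Cy5. The deposited ratios of the replicates ran in opposite directions, and the sign of replicate 2 was turned. The resulting direction is likely and not stated in the labels. It rests in part on storage protein transcripts being lowest in stolons, so a rise of storage transcripts here is not independent evidence of direction, and with the other choice every "higher" below becomes "lower". After turning, the replicates correlated across spots at 0.433 for 1-5 mm and 0.385 for 6-10 mm tubers. For the same reason patatin is no check of the tissue labels. The spots of pat1 lay between -5.64 and -6.93 in stolons, and its tested spot read -0.23 and -0.99 in 1-5 mm and 0.15 and -0.14 in 6-10 mm tubers.

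When a stolon tip begins to swell, cell division and expansion turn it into a storage organ. Sucrose delivered from the leaves is converted to starch, and the cells fill with patatin, a lipid acyl hydrolase that serves as the main storage protein, and with protease inhibitors of the Kunitz and potato inhibitor families. These inhibitors act on serine, cysteine or aspartic proteases and are regarded both as nitrogen stores and as protection against herbivores. Kunitz inhibitors and patatins are encoded by multigene families, and a spotted cDNA may not tell near-identical members apart.

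Between 1-5 and 6-10 mm a small set of transcripts rose. Protease inhibitors were the only readable names among its spots listed with a single gene. These rises were not shown to be larger than the changes in the later steps tested. Of 9054 spots tested, 42 were higher in 6-10 mm tubers (0.464%) and 1 was lower (0.011%) at a Benjamini-Hochberg adjusted p under 0.05 in limma, fitted over the 10 tuber arrays with size class and replicate, and 768 (8.48%) had an unadjusted p under 0.05. The 42 rises ranged from 1.08 to 3.38 on the log2 scale with a median of 1.94, which is 3.83-fold. Among the named genes, the aspartic protease inhibitor API rose by 3.38 ± 0.28 (SE, n = 2 per class, limma adjusted p = 0.00354) and the cysteine protease inhibitor KTI-C by 2.08 ± 0.24 (limma adjusted p = 0.0128). Most genes with a readable name, 149 of which were tested on 457 spots, did not pass. No spot passed in a fit without the replicate as a block (0 higher and 0 lower, with 66 at an unadjusted p under 0.05), in a fit that added the stolons, or after the arrays were scaled to one spread. Leaving out replicate 2 of the 1-5 mm tubers cut the 42 to 11, and leaving out replicate 1 of that class raised it to 81.

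API carried the largest change of any spot tested. Its log2 ratio was -3.18 in replicate 1 and -5.10 in replicate 2 of the 1-5 mm tubers, and -0.40 and -1.13 in the 6-10 mm tubers. Both 6-10 mm values lay above both 1-5 mm values. API is a Kunitz-type inhibitor of aspartic proteases such as cathepsin D. It has 2 spots on the array, which are the pair of prints of a single clone, and both passed, with changes of 3.17 and 3.38. Their mean rose by 3.27 ± 0.32 (limma adjusted p = 0.00408 over gene means). In stolons the ratio was -3.06 and -8.31, so replicate 1 showed no rise from stolon to 1-5 mm while replicate 2 rose by 3.22. Beyond 10 mm the ratio went on to 0.91 and 0.07 at 11-15 mm, 1.93 and 0.92 at 16-25 mm and 2.95 and 2.12 at 26-35 mm. Each later class was thus above the one before it in both replicates.

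KTI-C, a Kunitz-type inhibitor of cysteine proteases, changed over the same step. On its spot with the smallest p it read -1.09 and -2.83 at 1-5 mm and 0.47 and -0.23 at 6-10 mm. The classes did not overlap. Of 14 KTI-C spots on the array 5 could be tested, from 3 clones, and all were higher in 6-10 mm tubers. The clones did not move equally: 4 spots of 2 clones passed, with changes of 2.08 to 2.21, whereas the spot of the third clone changed by 0.77 (adjusted p = 0.334). The mean of the 5 spots rose by 1.86 ± 0.24 (limma adjusted p = 0.0137). The KTI-C spot was at -6.64 (the lowest ratio deposited) and -8.67 in stolons and reached 2.66 and 1.28 at 26-35 mm. Without replicate 2 of the 1-5 mm tubers its change was 1.82 with an adjusted p of 0.062.

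The other storage and inhibitor genes were higher too but did not pass. PIN-II, a serine protease inhibitor of the wound-inducible potato inhibitor II family, had 5 tested spots with changes of 0.77 to 1.16, and the spot with the smallest p read -0.34 and -1.71 at 1-5 mm and -0.06 and 0.32 at 6-10 mm (1.16 ± 0.37, limma adjusted p = 0.342). The change of PIN-II was carried by replicate 2, where this spot differed by 2.04, against 0.28 in replicate 1. On its other 4 spots the replicate 1 difference was between -0.29 and -0.03. Patatin pat1 had 6 spots on the array, of which 1 had enough values, and this changed by 0.62 ± 0.21 (adjusted p = 0.447). On that spot the ratio went from -6.64 and -6.93 in stolons to -0.23 and -0.99 at 1-5 mm, so pat1 was already near the level of the pool at 1-5 mm. The stolon value of -6.64 is the lowest ratio deposited and only bounds the difference. IIK, another proteinase inhibitor II gene, had 2 spots and no value on all 4 arrays. Over the storage protein and protease inhibitor list, all 13 tested spots were higher, with a median of 1.16. In both replicates 9 of the 13 were higher, against 21.3% of all spots tested, and 6 passed, against 0.464%. The 13 spots belong to 4 genes and include repeated prints of a clone, so they are not independent of each other. Over all spots tested, 44.7% of the estimates lay above 0 and the median was -0.03. A spot needs a measurable signal at 1-5 mm to be tested, so transcripts still too weak there were left out.

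**Figure D1:**
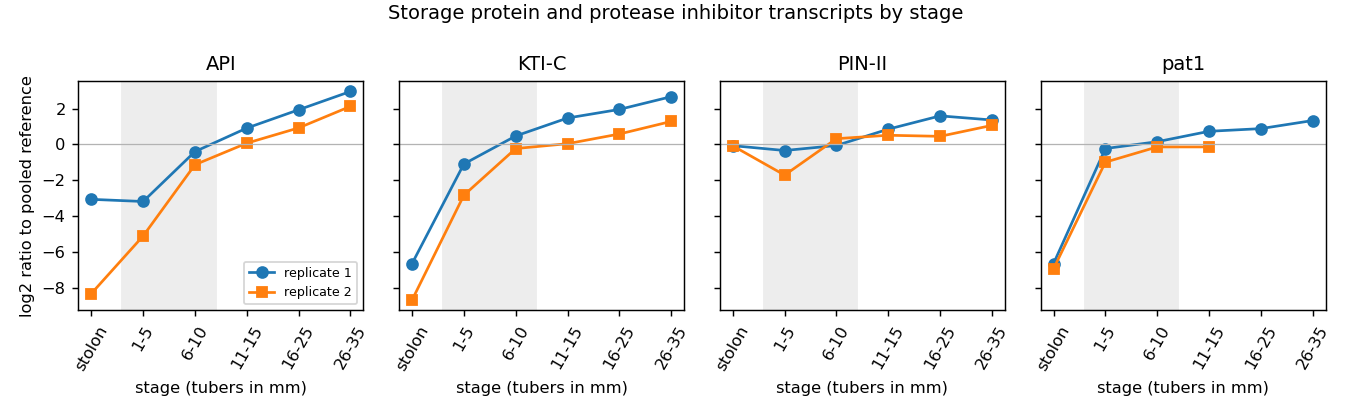
Log2 ratio to the pooled reference by stage for the spot with the smallest p of API, KTI-C, PIN-II and pat1, 1 line per replicate and the compared classes shaded. API and KTI-C rose between 1-5 and 6-10 mm in both replicates, PIN-II differed by 0.28 and 2.04, and pat1 had its large difference before, from -6.64 and -6.93 in stolons to -0.23 and -0.99 at 1-5 mm.

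The other transcripts that rose were not assigned to a single gene with a readable name. The 42 spots came from 27 clones, each clone having been printed on 2 spots, and for 15 clones both spots passed. Of the 12 clones with a single spot past the threshold, 9 had a second tested spot, and all 9 were higher as well, with changes of 1.07 to 1.94 and adjusted p from 0.0501 to 0.436. By annotation, 29 of the spots had no gene, 4 had several, and 9 had 1 gene, which gave API, KTI-C, LOC102599310 and LOC102587659. LOC102599310, a gene known here only by its number, read 0.26 and -1.42 at 1-5 mm and 1.20 and 0.38 at 6-10 mm, a rise of 1.37 ± 0.22 (limma adjusted p = 0.0365), and its second spot gave 1.39. Its 1-5 mm values and 6-10 mm values did not overlap. LOC102599310 did not pass with array weights (adjusted p = 0.0756), with the 4 arrays alone (0.117), or without replicate 2 of the 1-5 mm (0.158) or of the 6-10 mm tubers (0.173). LOC102587659 rose by 1.57 on 1 spot (adjusted p = 0.013), from -1.18 and -1.98 to 0.11 and -0.14, whereas the mean of its 4 spots changed by 0.76 ± 0.17 (adjusted p = 0.131). The spots without a single gene name that had the smallest p were 154316, which went from -1.47 and -3.78 to 1.01 and -0.15 (3.05 ± 0.26, adjusted p = 0.00354), and 134104, listed with several genes, which went from -1.47 and -3.61 to 0.88 and -0.44 (2.76 ± 0.26, adjusted p = 0.00494).

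**Figure D2:**
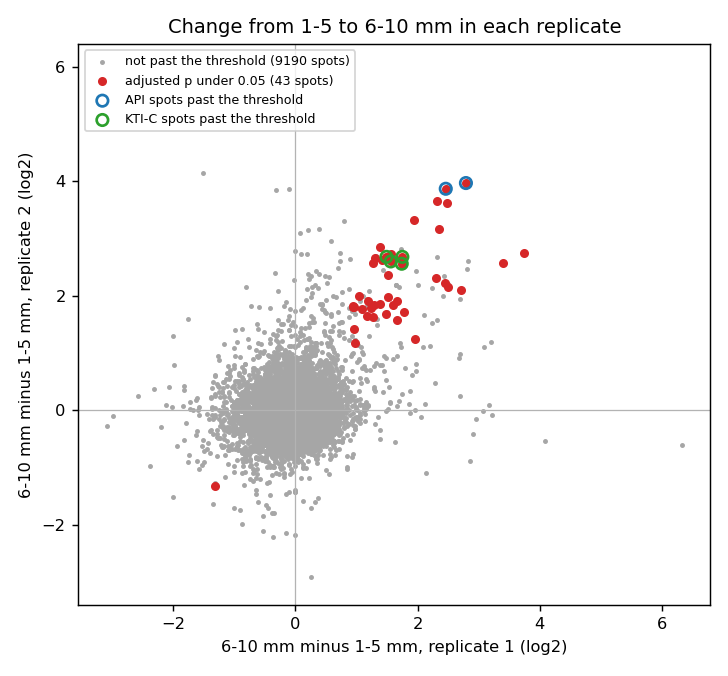
Difference between 6-10 mm and 1-5 mm tubers in replicate 1 (horizontal) and replicate 2 (vertical), log2, for the 9233 spots with a value on all 4 arrays. Grey points did not pass or were not tested, red points passed, and rings mark API and KTI-C. Of the 43 red points 42 lie at the upper right and 1 at the lower left. Grey points reach the same regions, as 79 spots were at least 1 higher and 8 at least 1 lower in each replicate. In the central cloud the replicates share a sign for about as many spots as not.

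The replicates agreed for these spots in sign, largely a result of calling them on the same arrays, and less well in size. The within-replicate difference of the 42 spots was 0.94 to 3.74 in replicate 1, with a median of 1.54, and 1.17 to 3.97 in replicate 2, with a median of 2.13. It was larger in replicate 2 for 34 spots and in replicate 1 for 8. For 41 of the 42 both 6-10 mm values lay above both 1-5 mm values, against 6.07% of all spots with 4 values (7.02% lay the other way round), and the same arrays set the calls, so nothing further is read from it. Across all 9233 spots, 4723 (51.2%) had the same sign in both replicates, 1978 higher (21.4%) and 2745 lower (29.7%), and the correlation between replicates was 0.268 (Spearman 0.124). Requiring a difference of at least 1 in each replicate left 79 higher (0.856%) and 8 lower spots (0.0866%). Spots with a large difference in both replicates were thus mostly rises, while over all spots falls were the more frequent.

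Transcripts that fell were few. Spot 158032, which has no gene name, fell by 1.32 on the log2 scale (SE 0.18, limma adjusted p = 0.037), from -4.32 and -1.28 at 1-5 mm to -5.64 and -2.60 at 6-10 mm. The call did not hold with array weights (adjusted p = 0.0809), a trended robust prior (0.364), the 4 arrays alone (0.0525) or any of the 4 compared arrays left out (0.078 to 0.172), while the difference stayed between -1.35 and -1.29. The drop was -1.32 in each replicate, but the classes overlapped because replicate 1 lay lower throughout. In stolons this spot read 0.12 and 0.36, above every tuber value. LOC102577576, named after its values were seen, went from 0.95 and -0.61 to -0.81 and -1.51, and its only tested spot missed the threshold among all spots (-1.33 ± 0.23, adjusted p = 0.0501) and passed among gene means (-1.33 ± 0.22, adjusted p = 0.034). Over 347 gene means 4 passed (1.15%): API, KTI-C and LOC102599310 rose (0.865%) and LOC102577576 fell (0.288%).

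**Figure D3:**
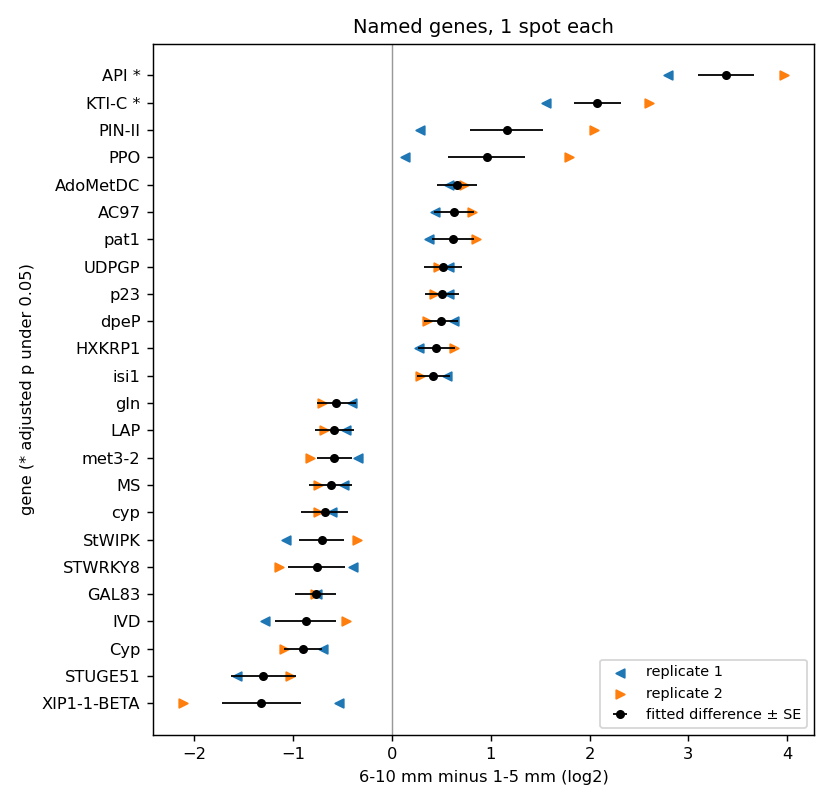
Fitted log2 difference between 6-10 mm and 1-5 mm tubers (black, bars are SE) with the difference in each replicate (triangles), for the 12 higher and 12 lower named genes, 1 spot each. API and KTI-C passed the threshold, and the others reached at most 1.16 upward and 1.32 downward.

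Beyond the protease inhibitors, 8 further named genes completed the 12 with the smallest p among those higher in both replicates, with PIN-II and pat1, and none of these 10 passed (adjusted p from 0.32 to 0.575). PPO, a polyphenol oxidase of tuber browning, changed by 0.96, which was 0.13 in replicate 1 and 1.79 in replicate 2. AdoMetDC, the decarboxylase that feeds polyamine synthesis, changed by 0.66 on this spot and by 0.08 as the mean of 13 spots. UDPGP, which makes UDP-glucose, changed by 0.52, and dpeP, the plastid disproportionating enzyme of starch metabolism, by 0.50. The actin AC97 changed by 0.63, p23 by 0.51, the hexokinase-related HXKRP1 by 0.45 and isi1 by 0.42. These values are single spots chosen by their p among several of a gene, and the gene means of all 8 were smaller.

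The 12 genes named on the lower side did not pass either (adjusted p from 0.099 to 0.498). STUGE51, a UDP-glucose epimerase that interconverts UDP-glucose and UDP-galactose, read 1.87 and -0.39 at 1-5 mm and 0.30 and -1.42 at 6-10 mm (-1.30 ± 0.33, adjusted p = 0.182), and its other spot gave -1.24. It lay lower still at 11-15 mm, at -1.03 and -3.58. XIP1-1-BETA, an aquaporin gene, differed by -1.32 ± 0.40 (adjusted p = 0.307), from -2.94 and -1.23 to -3.47 and -3.34, mostly in replicate 2. Leaving out 1 compared array moved the difference of XIP1-1-BETA from -0.55 (adjusted p = 0.643, without replicate 2 of the 1-5 mm tubers) to -2.10 (adjusted p = 0.0264, without replicate 1 of that class). GAL83, a subunit of the SnRK1 kinase that senses energy status, differed by -0.77 (adjusted p = 0.24), nearly alike in both replicates, at -0.76 and -0.78. Cyp differed by -0.90 (adjusted p = 0.099), and 11 of its 12 tested spots were lower. The wound-induced MAP kinase StWIPK differed by -0.71, IVD, an enzyme of leucine breakdown, by -0.87, STWRKY8, a WRKY transcription factor, by -0.76 and LAP, a leucine aminopeptidase, by -0.58. For STWRKY8 the second spot went the other way (0.52). The remaining named genes, met3-2, cyp, MS and gln, differed by -0.56 to -0.68. These too are the spots of smallest p: the gene mean was -0.41 for Cyp over 12 spots, -0.21 for LAP over 6, -0.16 for MS over 9, -0.46 for cyp over 7 and -0.12 for STWRKY8 over 2.

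The pathways of tuber filling were followed in 21 gene lists with 144 genes, of which 101 were tested, and only the storage and inhibitor list held a spot that passed. In the starch list 13 of 20 spots were higher and 0 passed, with a median of 0.16 and values between -0.41 and 0.50. Its alpha-amylase AMYA1 read 1.34 and 0.43 at 1-5 mm and 1.77 and 0.86 at 6-10 mm (0.43, adjusted p = 0.629), and the granule-bound starch synthase gene GBSS-II differed by 0.35 (adjusted p = 0.709). agpS2, for the small subunit of ADP-glucose pyrophosphorylase, differed by -0.41 (adjusted p = 0.622). In the list of sucrose and UDP-sugar metabolism 12 of 17 spots were lower and 0 passed (median -0.19). Among regulators of tuber formation and hormones, 0 of 12 spots passed: BEL5, whose mobile transcript promotes tuber formation, differed by -0.26 and the gibberellin oxidase GA2OX1, which inactivates gibberellin, by 0.34, from 0.80 and 1.03 to 1.44 and 1.06. These list genes are given on their spots of smallest p, and the gene means were smaller. The mean was -0.06 for BEL5 over 4 spots, 0.22 for GA2OX1, -0.27 for agpS2, 0.26 for GBSS-II and 0.37 for AMYA1.

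Several lists leaned downward with no spot past the threshold. Of 42 spots of mitochondrial respiration and import, 34 were lower, 24 of them in both replicates, but the median was -0.12 and no value lay below -0.37. The adenine nucleotide carrier AAC differed by -0.37 on its spot with the smallest p, and all 9 of its spots were lower. Photosynthesis had 12 of 13 spots lower (median -0.31), 4 of them in both replicates. PSBR, a photosystem II protein, was lower on all 8 spots. MSP-II differed by -0.55 on its spot with the smallest p but by -0.12 ± 0.56 as the mean of 3 spots, and OEE2 by -0.07. Membrane transport had 13 of 17 lower (median -0.43), among them all 6 spots of the plasma membrane proton pump PHA2, at -0.55 to -0.44, and KST1, a guard cell potassium channel, at -0.43 and -0.11. Of the translation and protein turnover list 20 of 25 were lower (median -0.08). Over all spots tested 55.3% were lower.

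**Figure D4:**
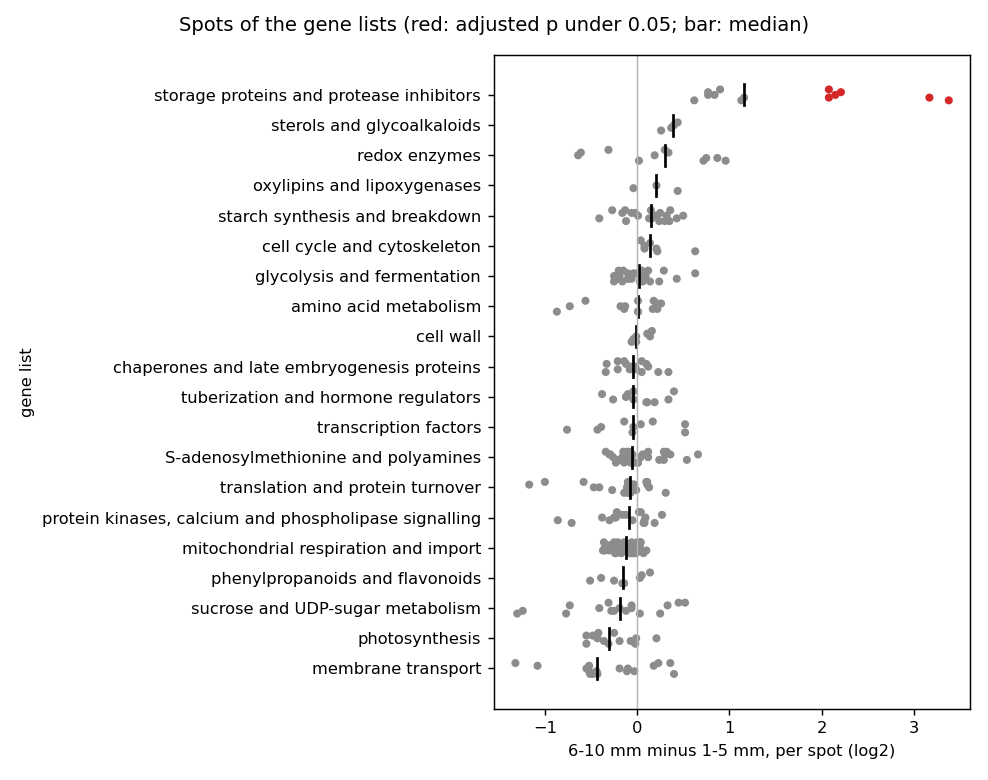
Fitted log2 difference between 6-10 mm and 1-5 mm tubers for each tested spot of the 20 gene lists with a tested gene, with the list median as a bar. The 6 spots past the threshold, in red, are all in the storage protein and protease inhibitor list, and the other medians lie between -0.43 and 0.38.

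The remaining lists also held 0 spots past the threshold. In the redox list 8 of 11 spots were higher (median 0.30), but only 3 in both replicates. The 4 PPO spots were among the 8, while the catalase CAT1 differed by -0.64 (adjusted p = 0.656). SGA of glycoalkaloid synthesis was higher on 4 of 4 spots (median 0.38), but only 1 in both replicates. All 7 tested spots of the cell cycle and cytoskeleton list were higher, by 0.04 to 0.63, but only 2 in both replicates. They were spots of the actin AC97 and the tubulin gene TUBB1, so no cell cycle gene of the list was tested. The median was 0.21 for 3 oxylipin spots, 0.02 for 29 spots of glycolysis and fermentation, 0.01 for 15 of amino acid metabolism, -0.01 for 8 of the cell wall, -0.04 for 16 dnaJ chaperone spots, -0.05 for 10 of transcription factors, -0.06 for 35 of S-adenosylmethionine and polyamines, -0.08 for 18 of kinases and signalling and -0.15 for 8 of phenylpropanoids. VPE2, a vacuolar processing enzyme, differed by -1.17 but with an SE of 0.58 (adjusted p = 0.641), and 0 spots of the 3 defence genes could be tested.

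The 42 spots that rose were followed through the other stages. The later tuber arrays set the spread in the fit that chose these spots, so their values at those stages are a description. Their median in replicate 1 was -2.94 in stolons, -0.90 at 1-5 mm, 0.77 at 6-10 mm, 1.60 at 11-15 mm, 2.19 at 16-25 mm and 2.68 at 26-35 mm. In replicate 2 it was -3.33, -2.19, -0.01, 0.25, 0.94 and 1.43. Both series of medians climb through every class, with the steepest parts before 10 mm, but not every spot did. From 6-10 to 11-15 mm, 27 of the 42 were higher and 3 lower in both replicates, against 29.7% higher in both among all tested spots. From 11-15 to 16-25 mm and from 16-25 to 26-35 mm, 35 and 33 of the 42 were higher in both replicates, against 20.6% and 28.1% of all tested spots. The choice of spots favours those whose replicates moved alike in these steps, so these counts are not independent support. The median changes of the later steps were, in order, 0.60, 0.58 and 0.67, under the 1.94 of the first step, whose size was selected. At 26-35 mm 37 of the 42 lay above their own 6-10 mm value in both replicates, by a median of 1.83 over the 42, and the other 5 were mixed.

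**Figure D5:**
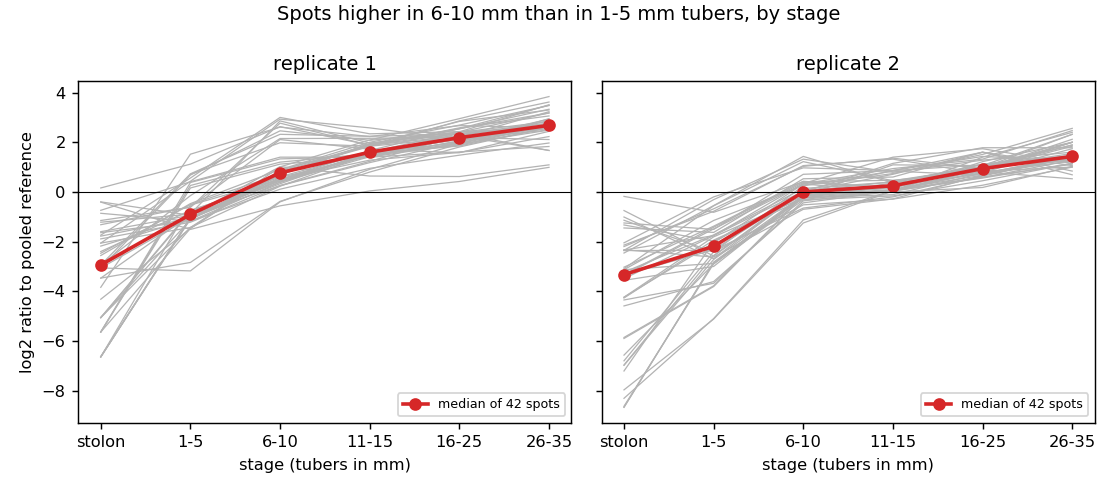
Log2 ratio to the pooled reference by stage for the 42 spots higher in 6-10 mm than in 1-5 mm tubers, in replicate 1 (left) and replicate 2 (right). Grey lines are spots and the red line is their median, which runs from -2.94 and -3.33 in stolons to 2.68 and 1.43 at 26-35 mm.

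The same 42 spots were read in microtubers formed in tissue culture, separate samples hybridised against their own pool, with the ratios in the direction deposited. All 10 in vitro values were present for 27 of the 42 spots, from 19 clones (64.3%, against 89.7% of all tested spots). Between 2 and 30 days after tuber induction all 27 were higher in both replicates, by 0.21 to 6.22 with a median of 4.38, against 41.6% of all tested spots, whose median was 0.02. The increase came early: the median was 2.27 from 2 to 5 days, 1.27 from 5 to 10 days and 0.59 from 10 to 20 days, while from 20 to 30 days 19 of the 27 were lower in both replicates, with a median of -0.14. LOC102599310 read -4.32 and -3.47 at 2 days and 0.53 and 0.43 at 30 days. Spots of API and KTI-C had at most 2 in vitro values each and are not part of this count. The 27 spots include both prints of some clones and are not independent of each other.

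Whether this first growth step differs from later ones was tested directly. Between 6-10 and 11-15 mm 0 of 8946 spots passed in limma (1228 or 13.7% at an unadjusted p under 0.05, lowest adjusted p 0.0693), and between 16-25 and 26-35 mm 0 of 9069 (457 or 5.04% unadjusted, lowest adjusted p 0.168). The change from 1-5 to 6-10 mm differed from the next step for 0 of 8720 spots (335 or 3.84% unadjusted, lowest adjusted p 0.138) and from the last step for 0 of 8011 (361 or 4.51% unadjusted, lowest adjusted p 0.241). Rises that passed in the first step and not in the later ones are therefore not shown to be larger there. Across spots, the differences of the replicates correlated at 0.268 for the first step, 0.385 for the next one, 0.0406 from 11-15 to 16-25 mm and 0.154 from 16-25 to 26-35 mm.

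Array coverage differed between the classes, and green tissue markers did not move one way. Values were present for 14539 and 14347 spots in the 1-5 mm tubers and for 10740 and 14209 in the 6-10 mm tubers, and 2366 of the 3018 spots with 3 of 4 values lacked only 6-10 mm replicate 1. The light-harvesting gene cab1, a marker of green tissue, had 8 spots and no value in that array. In replicate 2 it lay between -3.53 and -1.05 at 1-5 mm and between -2.23 and -0.78 at 6-10 mm, 0.04 to 1.60 higher on all 7 spots with both values, against 0.27 to 0.53 in stolons. In the fit of both replicates, 12 of 13 tested spots of the photosynthesis list were lower, but only 4 in both replicates, and 8 of the 13 are PSBR. In replicate 2 alone, where cab1 was read, the spots of smallest p differed by -0.29 for PSBR, 0.08 for MSP-II and 0.70 for OEE2. The part of green tissue and of coverage in the results was not tested. Fewer cells of a type and less RNA per cell cannot be told apart in whole tubers.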

How the data were processed

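RNA of 2 samples of each size class was compared on spotted 2-colour arrays, and the other 6 tuber arrays entered the fit to estimate the spread. The deposited values are log2 ratios of sample and reference made by the authors. Limma appears, without a version, in the submitters' processing notes. How background, normalization and weak spots were treated, and the order of the ratio, is not given in the sources used here. A value of -6.643, a ratio of 0.01, was the lowest deposited. Array medians lay near 0, and values were used as deposited, with replicate 2 in vivo multiplied by -1.

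Stolons were left out of the fit because their RNA was amplified before labelling, per the labels, and because of an earlier result from these data. In that result the differences between stolon replicates ran against those of the tubers. Here they correlated between -0.468 and -0.375 with those of the tuber classes. The choice was thus made in part from the data, and the calls depend on it. Testing required a value on all 4 arrays compared and on at least 8 of the 10 tuber arrays. limma 3.58.1 in R 4.3.3 was fitted with size class and replicate, with Benjamini-Hochberg adjustment over all spots. The fit was also run on simulated arrays with independent noise and no replicate effect, which does not bear on how firm the calls are. The replicate pairs the samples because it marks plantings in the labels; deviations from the class means correlated between 0.846 and 0.933 among tuber classes and at 0.873 for the classes compared. Replicate also marks the dye, which cannot be told apart from planting. Arrays give no counts. Their small number limits the precision, and so do missing values, the lowest ratio deposited and differences between prints of a clone.

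Gene names came from the platform annotation, updated with the SolTub_3.0 gene table: 1630 spots had 1 gene, 180 several and 30638 none, and 197 of 430 genes had a readable name. Clones were paired from the array layout, which held for all 905 clones with an accession; the estimates of paired spots correlated at 0.801 over 3804 clones, a description. A gene was represented by its tested spot of lowest p among those with one sign in both replicates. Up to 12 genes each way were named, first those past the threshold, then those with the smallest p; up to 4 genes of each list, and up to 2 unnamed spots each way, were added. LOC102599310, LOC102587659 and LOC102577576 were named after their values were seen. The members and lists were chosen with earlier results of these data known. Alternatives were no block, all 12 in vivo arrays, other scalings, filters and weights, and each array left out.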

Additional observations from a re-analysis of the deposited data

How the results depend on the processing

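Median centring and a trended robust prior left both counts within 1.5 times, but under that prior spot 158032 lost its call (adjusted p = 0.364) and LOC102577576 passed (0.038). The higher count was 54 with the 4 arrays alone and 44 without spots at the lowest ratio, and the lower count was 2 in each. Array weights gave 26 and 0, spots with all 10 tuber values 68 and 3, and averaging the 2 spots of a clone, an alternative chosen after seeing the data, 23 higher and 1 lower. No spot passed without the replicate block (0 and 0), with the replicate block over all 12 in vivo arrays (0 and 0, 211 at an unadjusted p under 0.05) or after scaling between arrays (0 and 0, 958 unadjusted), and the gene means likewise gave 0 in these 3 fits. The cause was not tested; the median absolute value of the tuber arrays ran from 0.433 to 0.799. After scaling, API had an adjusted p of 0.262 and KTI-C of 0.221. The other direction gives 1 higher and 42 lower. Leaving out 1 array gave 11 to 81 higher and 1 to 10 lower spots, 1 to 4 higher and 0 to 4 lower gene means, 0 to 4 spots that differed from the next step and 0 to 14 from the last, and 0 to 13 and 0 to 7 for those 2 steps themselves. The share of spots with one sign was 93.5% among those differing by at least 1 in each replicate.

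Of the comparisons of named genes and spots under an alternative, 1031 kept direction and side of the threshold. Of the others, 30 lost the threshold, 4 gained it and 16 changed sign. Only entries that had passed could lose it, and most of the 1031 were of genes that had not passed. The 30 losses all fell on API, KTI-C, LOC102599310 and spots 154316, 134104 and 158032. All 16 sign changes were of genes that had not passed. The other direction of the ratios, which turns every sign including those of API and KTI-C, is not part of these counts. After scaling, expp1 was at 0.09 and OEE2 at 0.14. With an array left out, GA2OX1 ran from -0.31 to 0.99, TUBB1 from -0.46 to 0.74, PEST2 from -0.14 to 0.42 and expp1 from -0.10 to 0.04. In the same way, CYP74D2 ran from -0.33 to 0.74, METK1 from -0.74 to 0.06, MSP-II from -1.12 to 0.02, OEE2 from -0.98 to 0.84, CCoAMT from -1.10 to 0.33, StEBP1 from -0.58 to 1.62, StWhy1 from -0.28 to 0.61 and GPI from -0.46 to 0.05.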
